A study of Rattus norvegicus with 6 samples.

Results

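The genes described here are 40 rat genes of the unfolded protein response and the integrated stress response, listed by symbol and read through the RefSeq accession of each array probe. Of the 40, 38 had at least 1 probe on the array (63 probes in all) and 37 were measured, among 28995 features tested. Manf and Edem1 were not analysed here, and the Vldlr probe was too dim to be kept. The genes fall into an ATF4 arm of 18 (5 transcription factors and 13 targets) and an endoplasmic reticulum (ER) arm of 22 (3 sensors and factors, 14 chaperones and folding enzymes, and 5 translocation and degradation genes).

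Livers came from male Sprague-Dawley rats, bought at 5 weeks of age and kept on a basal diet. Of the 6 animals, 3 were given bromodichloromethane (BDCM) at 200 mg/kg/day and 3 were given corn oil. BDCM is a trihalomethane, a by-product of drinking water chlorination, and the series asks how chemicals alter gene expression in rat liver. The labels speak of 9 weeks of administration in one place and of measurement at 28 days in another, so the length of exposure is not settled. The labels describe separate animals, each with its own 1-colour Agilent array.

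When unfolded proteins build up in the ER, 3 membrane sensors respond. IRE1 (Ern1) splices the Xbp1 transcript, ATF6 is cleaved to an active factor, and PERK phosphorylates the translation factor eIF2. The first pair of branches raises ER chaperones and the machinery that retrieves and degrades misfolded proteins. Phosphorylated eIF2 lowers most protein synthesis but favours translation of ATF4, which raises genes of amino acid uptake, amino acid synthesis and one-carbon metabolism. Kinases that sense amino acid shortage, double-stranded RNA or haem deficiency reach the same eIF2 site, which is why the ATF4 arm can act without ER stress. Hepatocytes secrete most plasma proteins and carry a large ER, so chaperone transcripts are abundant in liver. ATF4 and ATF6 activity and Xbp1 splicing are set largely after transcription, and the arrays do not measure those steps.

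The short DNA motifs by which these arms are usually recognised lie in some of the members' promoters, shown here to set the sequences beside the values of the same genes. RefSeq (rat assembly GRCr8) supplied windows from 250 bases before to 50 bases after the start for 33469 promoters, of which 36 belonged to 34 of the members. The ER stress element was searched on both strands as CCAAT, any 9 bases, CCACG. It was in 22 windows of all genes (0.0657%) and in 7 of the members' 36 windows (19.4%). These were 6 of the 12 chaperone windows and the Xbp1 window, and 0 of the 14 windows of ATF4 targets. A selection of the stretches is shown. Each runs 5′ to 3′ on the gene's strand with 10 bases on either side, and capitals mark the fixed letters. In Calr and Creld2, and in the match of Hsp90b1 shown, the element reads on the opposite strand. Positions count from the annotated start as 0.
Calr, calreticulin, chr19:40213125-40213163, plus strand, bases -232 to -214: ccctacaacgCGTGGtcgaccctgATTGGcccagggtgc
Hspa5, BiP, chr3:38452963-38453001, plus strand, bases -43 to -25: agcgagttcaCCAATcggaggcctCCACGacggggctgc
Hsp90b1, GRP94, chr7:23012337-23012375, minus strand, bases -72 to -54: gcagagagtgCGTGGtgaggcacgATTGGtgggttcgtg
Creld2, chr7:121789229-121789267, plus strand, bases -145 to -127: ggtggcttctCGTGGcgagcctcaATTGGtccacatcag
Dnajc3, chr15:102432524-102432562, plus strand, bases -133 to -115: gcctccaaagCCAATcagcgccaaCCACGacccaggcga
Xbp1, chr14:84604548-84604586, plus strand, bases -65 to -47: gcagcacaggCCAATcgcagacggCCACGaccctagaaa

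The core of the C/EBP-ATF response element, the site type bound by ATF4 with C/EBP partners, was searched on both strands as TTNCATCA. It was in 1332 of all windows (3.98%) and in 3 of the 14 windows of ATF4 targets (21.4%), those below, as well as in the window of Herpud1. Capitals mark the core.
Chac1, chr3:126795954-126795981, plus strand, bases -167 to -160: ttctccgccgTTGCATCActcctgctag
Fgf21, chr1:105221502-105221529, minus strand, bases -143 to -136: gacccccccaTTGCATCAttcgtccagg
Trib3, chr3:161275537-161275564, minus strand, bases -21 to -14: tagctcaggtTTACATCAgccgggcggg
A variant, ER stress element II (ATTGG, any 1 base, CCACG), was in 17 of all windows (0.0508%) and in those of Dnajb11, Herpud1 and Hyou1. The unfolded protein response element TGACGTGG was in 199 of all windows (0.595%) and in that of Hyou1, where it overlapped a match of ER stress element II. A match is a description of these letters and shows no binding.

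Values below are relative signals, the processed fluorescence of a probe divided by the 75th percentile of its array. That percentile was between 670 and 825 fluorescence units, and 61.3% to 66.9% of 61657 probes were well above background on each array. BDCM animal 1 and the 3 corn oil animals were on slide 1, and BDCM animals 2 and 3 were on slide 2, which was scanned separately. A gene was called at an adjusted p under 0.05 in limma's test over all features. Of 8 hepatocyte markers, all were well above background on every array and 1 was called, Serpina1, lower at -0.50 (log2, adjusted p = 0.023). The summed signal of hepatocyte markers was 4061 to 4591 in BDCM livers and 4756 to 5247 in corn oil livers. Among markers of other cells, Lyve1 of sinusoidal endothelium was lower (log2 -0.56, adjusted p = 0.030) and Epcam of bile ducts was higher (log2 1.12, adjusted p = 0.021). The T cell genes Cd2 and Cd3e were called higher, neither being well above background in any corn oil liver. The measured mean log2 relative signal of Cd2 was -4.59 in BDCM livers and -5.81 in corn oil livers (limma adjusted p = 0.038). That of Cd3e was -4.74 and -5.91 (limma adjusted p = 0.026). With dim signals raised to the lowest signal well above background, the bounds were 1.47-fold and 1.33-fold. With normexp background correction the differences of Cd2 and Cd3e were log2 0.23 (adjusted p = 0.13) and 0.10 (adjusted p = 0.50), under those bounds. With quantile normalization Serpina1 stood at -0.23 (adjusted p = 0.15), and with spike-in scaling Serpina1 stood at -0.018 and Lyve1 at -0.07. All 5 marker calls were lost with slide as a block and with no filter on dim probes. In the 6 fits that left out 1 animal, Serpina1, Lyve1 and Cd2 passed in 0, Cd3e in 1 and Epcam in 3. The list sums were 51.7 to 55.8 against 62.9 to 66.1 for endothelium (1 of 4 called), 2.37 to 3.08 against 1.35 to 1.66 for bile ducts (1 of 4), and 2.16 to 2.53 against 1.62 to 2.10 for T and NK cells (2 of 6). At an unadjusted p under 0.05 in limma's test, 5 of the 6 T and NK markers passed, all higher. The same was so for 1 bile duct marker, and 4 hepatocyte and 3 endothelial markers passed lower. Of all features 27.5% passed. The groups were fully separate for 4 T and NK markers, all higher, against 18.4% of all features. Of the 8 Kupffer cell, 7 stellate cell, 4 B and plasma cell and 4 measured neutrophil markers, 0 were called in limma's test (at an unadjusted p under 0.05, 2, 1, 0 and 2). Their part in the members' values was not tested. In whole tissue, fewer cells of a type and less RNA per cell cannot be told apart.

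Of the 37 measured members, Slc7a5 was called higher in BDCM livers, Calr fell and 35 did not pass the test. The Slc7a5 probe passed the filter on dim probes through the BDCM livers alone, so Calr is the member called on signals measured in both groups. This share of called genes is below that of the array, where 2715 of 28995 features (9.36%) were called, 5.96% higher and 3.41% lower, and 7.92% of the 11405 features with a gene symbol, 4.18% higher and 3.74% lower. At an unadjusted p under 0.05, 9 members passed (2 higher and 7 lower in BDCM livers), while 27.5% of all features did. BDCM and corn oil values were fully separate for 11 members (2 higher, 9 lower in BDCM livers), against 34.4% of all features (18.4% higher, 16% lower). The median log2 fold change was -0.19 over the members and 0.00135 over all features. The arms differed in position: the ER arm had a median of -0.32 with 16 of 20 genes below 0, and the ATF4 arm a median of 0.01 with 8 of 17 below 0. Of all 28995 features, 14442 were below 0. Both medians moved with single animals. Without BDCM animal 1 they were -0.16 for the ER arm and 0.10 for the ATF4 arm. Without corn oil animal 3 they were -0.32 and 0.29. When arrays were scaled by their spiked-in control transcripts, the median of all features stood at 0.48, which turned the sign of the ER arm's median (0.16). Spike-in scaling shifts all features of an array alike, so the distance of the ER arm from all features could not change.

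**Figure D1:**
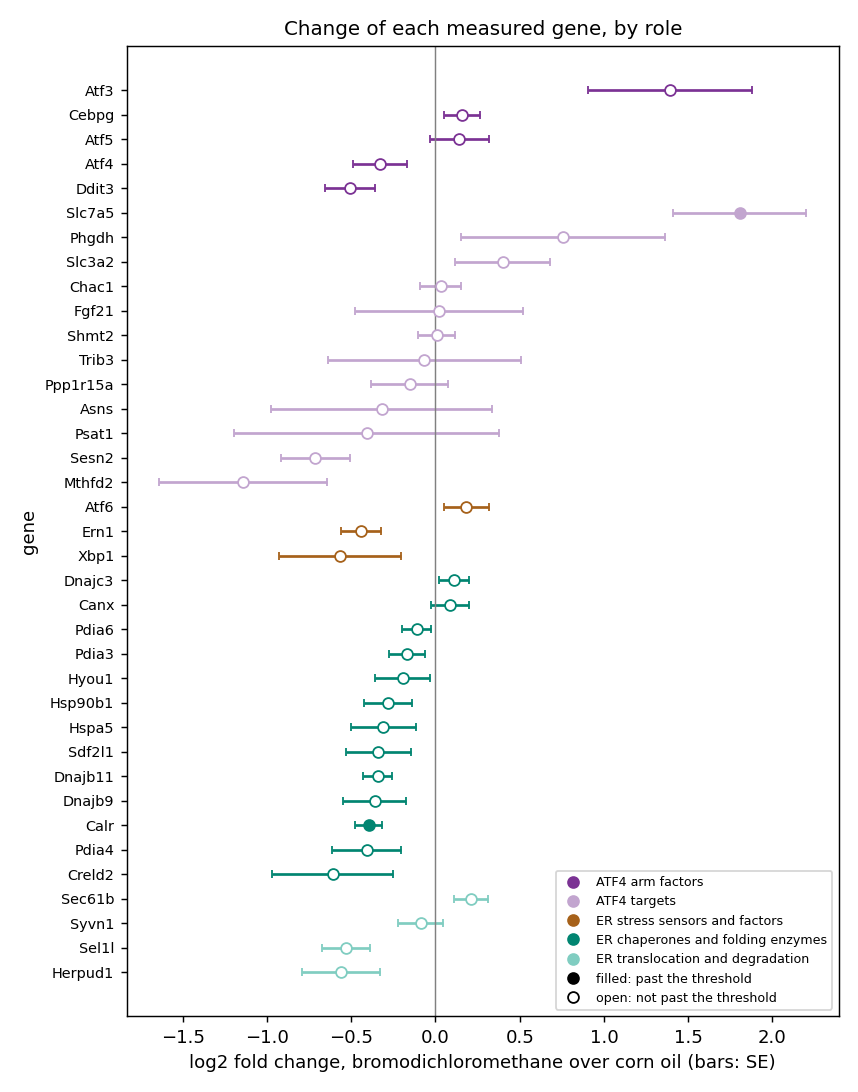
Log2 fold change of each of the 37 measured members (BDCM minus corn oil), with bars for the standard error, grouped by role; filled points passed an adjusted p of 0.05. Slc7a5 and Calr are the filled points, and 11 of the 13 chaperones sit below 0, a sign that turns for most of them with spike-in scaling.

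Calr, the calcium-binding lectin chaperone calreticulin, fell by a small and even amount. Its relative signal was 14.9, 16.1 and 15.8 in BDCM livers, against 20.8, 20.3 and 20.3 in corn oil livers. All 3 BDCM animals were below all 3 corn oil animals, and both groups were tight. On the log2 scale the means were 3.96 ± 0.06 in BDCM livers and 4.36 ± 0.02 in corn oil livers (SD, n = 3 each), a change of -0.39 (SE 0.08, limma adjusted p = 0.036). Within slide 1, BDCM animal 1 differed from the corn oil animals by -0.46 (adjusted p = 0.20). Leaving out any 1 animal moved the change between -0.42 and -0.36, and the adjusted p between 0.077 and 0.10, so the call was lost in all 6 such fits. It was also lost with slide as a block (adjusted p = 0.10), with median centring (0.056) and with no filter on dim probes (0.087). With spike-in scaling the difference was 0.09 (adjusted p = 0.65).

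The partner of calreticulin in the glycoprotein folding cycle behaved otherwise. Canx, the membrane-bound calnexin, had relative signals of 7.24, 8.92 and 9.13 in BDCM livers and 7.98, 7.61 and 8.11 in corn oil livers. The groups overlapped (log2 0.09, SE 0.12, adjusted p = 0.67).

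Hspa5, or BiP, the central Hsp70 of the ER and the usual readout of the unfolded protein response, did not pass the test. It had 66.7, 102 and 106 in BDCM livers, against 120.0, 103 and 110.1 in corn oil livers. BDCM animal 1 was far below the other 5 animals, while BDCM animals 2 and 3 were level with the corn oil range (log2 -0.31, SE 0.19, adjusted p = 0.35). Hsp90b1, the ER form of Hsp90, had 19.9, 26.4 and 25.3 in BDCM livers and 32.3, 27.2 and 27.2 in corn oil livers. Its groups did not overlap, but the gap between BDCM animal 2 and the lower corn oil animals was small (log2 -0.28, SE 0.14, adjusted p = 0.26). Hyou1, a large Hsp70 relative that exchanges nucleotide on BiP, had 14.5, 20.5 and 21.9 in BDCM livers and 21.9, 21.0 and 21.3 in corn oil livers. Again BDCM animal 1 alone lay clear of the rest (log2 -0.19, SE 0.17, adjusted p = 0.50).

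The J-domain partners of BiP divided. Dnajb11, a co-chaperone that delivers unfolded clients, had 6.63, 7.39 and 7.35 in BDCM livers, against 8.77, 9.08 and 9.24 in corn oil livers. These groups lay well apart, and the change of -0.34 (SE 0.09) had an adjusted p of 0.062. It passed with normexp background correction (0.016), with limma's trend and robust options (0.027) and when dim signals were raised to a shared floor (0.046). Dnajb9, a co-chaperone that also restrains IRE1 by way of BiP, had 3.02, 4.39 and 4.73 in BDCM livers and 4.78, 5.63 and 4.94 in corn oil livers, without overlap (log2 -0.36, SE 0.19, adjusted p = 0.27). Dnajc3, which inhibits PERK, was the exception in direction. It had 25.9, 27.3 and 28.6 in BDCM livers and 25.3, 26.4 and 24.1 in corn oil livers, with overlap (log2 0.11, SE 0.09, adjusted p = 0.46).

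The disulphide isomerases among the members are Pdia3, Pdia4 and Pdia6, which form and rearrange disulphide bonds. Pdia4 had 3.34, 4.34 and 5.72 in BDCM livers, against 5.20, 6.002 and 6.22 in corn oil livers (log2 -0.41, SE 0.20, adjusted p = 0.25). Pdia3 differed by -0.17 (SE 0.11, adjusted p = 0.36) and Pdia6 by -0.11 (SE 0.09, adjusted p = 0.46). The groups overlapped for all 3. Sdf2l1, a partner of BiP and its J proteins, had 14.4, 18.4 and 24.1 in BDCM livers and 24.0, 24.5 and 21.8 in corn oil livers (log2 -0.34, SE 0.19, adjusted p = 0.31). Creld2, a secreted ER stress protein, had 3.18, 6.98 and 8.34 in BDCM livers and 7.65, 9.83 and 8.72 in corn oil livers. BDCM animal 1 set most of the Creld2 difference (log2 -0.61, SE 0.36, adjusted p = 0.33), which was -0.19 without that animal. With slide as a block, the fit in which BDCM animal 1 alone carries the comparison, the Creld2 difference was -1.45 and passed (adjusted p = 0.048), as did 1.21% of all features.

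As a list, 1 of the 13 measured chaperones was called lower and 0 higher, against 3.41% lower and 5.96% higher of all features. Their median log2 fold change was -0.31, with 11 below 0. The groups did not overlap for 4 (Calr, Dnajb9, Dnajb11 and Hsp90b1, all lower in BDCM livers). Of all features 34.4% did not overlap, 16% lower and 18.4% higher. The size of the list's difference followed the animal. Averaged over the 13 genes, the log2 signal relative to the corn oil mean was -0.54, -0.18 and -0.06 in BDCM animals 1, 2 and 3, against -0.01, 0.03 and -0.02 in corn oil animals 1, 2 and 3. BDCM animal 1 was the lowest of its group for 12 of the 13 chaperones, where it was the lowest for 38.6% of all features. BDCM animal 3 was the highest of its group for 10 of 13, against 36.2% of all features. The summed signal of the hepatocyte markers stood in the same order, 4061, 4172 and 4591 in BDCM animals 1, 2 and 3. In corn oil animals 1, 2 and 3 it was 5247, 4992 and 4756. The median log2 fold change of those markers was -0.25, with 7 of 8 below 0. Whether the chaperones and these markers share a cause was not tested. Without BDCM animal 1 the chaperone median was -0.15, and within slide 1 it was -0.53. Since BDCM animal 1 was the only BDCM array on slide 1, its slide and its own state cannot be told apart.

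**Figure D2:**
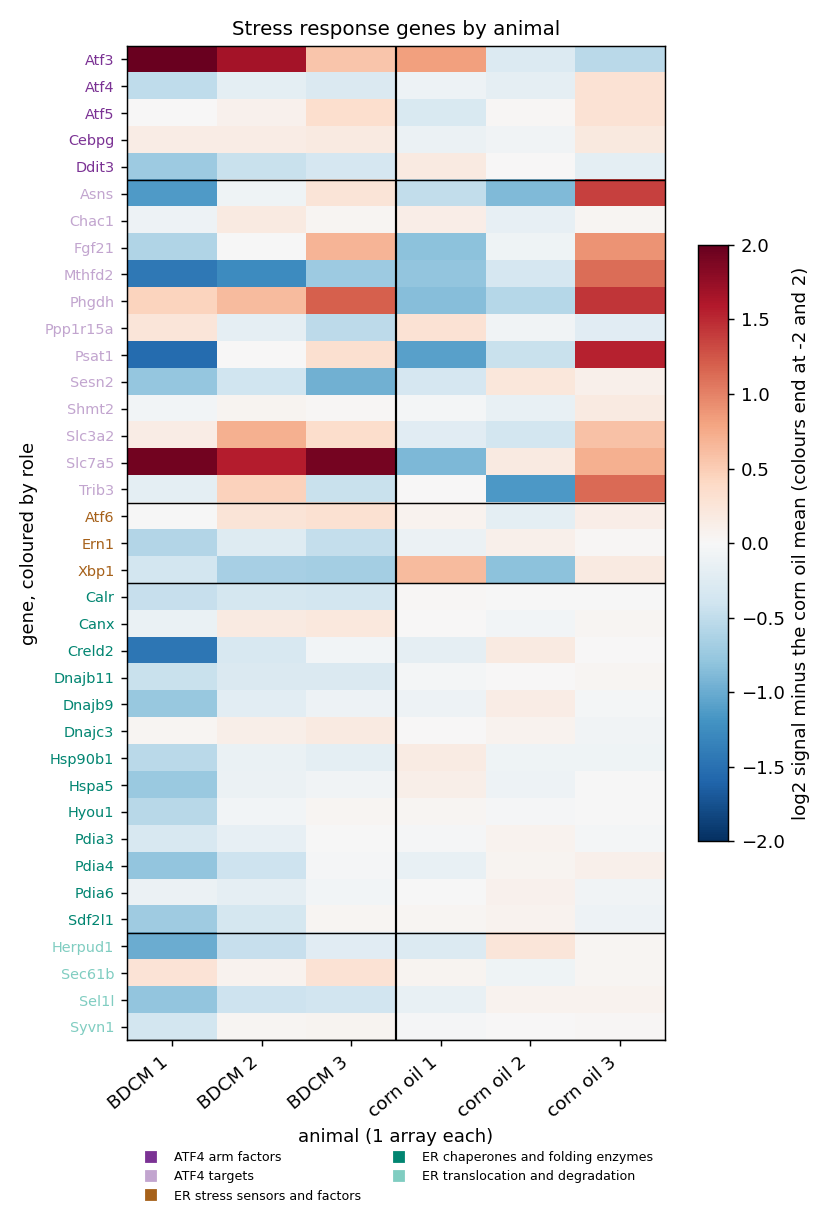
Heat map of log2 signal minus the corn oil mean for each measured member (rows, by role) in each of the 6 animals (columns, BDCM animals left of corn oil animals). Within the BDCM group, 12 of the 13 chaperone rows are lowest in animal 1, and the rows of Asns, Psat1, Phgdh and Mthfd2 are highest in corn oil animal 3.

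The sensors and factors that drive the ER arm did not pass the test. Ern1, which encodes the sensor IRE1, had a low relative signal of 0.0459, 0.0575 and 0.0492 in BDCM livers, against 0.0632, 0.0738 and 0.0694 in corn oil livers. The groups did not overlap, and the change was -0.44 (SE 0.12, adjusted p = 0.072). Xbp1, the factor made from the transcript that IRE1 splices, had 22.3, 18.2 and 18.03 in BDCM livers and 44.6, 16.3 and 32.6 in corn oil livers. The spread among corn oil animals covered all 3 BDCM values (log2 -0.57, SE 0.36, adjusted p = 0.36). Atf6 had 3.98, 4.80 and 4.97 in BDCM livers and 4.20, 3.50 and 4.41 in corn oil livers, also with overlap (log2 0.18, SE 0.14, adjusted p = 0.43). Whether the Xbp1 probe reads the spliced, the unspliced or both forms was not tested.

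The 4 measured genes of translocation and ER-associated degradation also did not pass. Sel1l, the scaffold of the HRD1 ubiquitin ligase that clears misfolded proteins, had 1.95, 2.53 and 2.60 in BDCM livers, against 3.05, 3.56 and 3.55 in corn oil livers. Its groups lay apart (log2 -0.53, SE 0.14, adjusted p = 0.072), a second Sel1l probe gave -0.56 (adjusted p = 0.052), and with trend and robust options the adjusted p was 0.044. In the 6 fits that left out 1 animal, Sel1l passed in 0 (adjusted p from 0.096 to 0.18). Syvn1, the ligase HRD1 itself, had 10.67, 14.1 and 14.2 in BDCM livers and 13.5, 13.7 and 13.9 in corn oil livers (log2 -0.09, SE 0.13, adjusted p = 0.72). A dimmer second probe of Syvn1 gave -0.31 (adjusted p = 0.19), and the mean over its probes was -0.20. Herpud1, which organises that complex, had 31.2, 45.4 and 53.2 in BDCM livers and 51.4, 73.5 and 64.0 in corn oil livers, overlapping by 1 pair of animals (log2 -0.56, SE 0.23, adjusted p = 0.18). Sec61b, a subunit of the translocation channel, had 47.4, 41.3 and 48.3 in BDCM livers and 40.7, 37.0 and 40.4 in corn oil livers. It was the member of the ER arm whose BDCM values all lay above the corn oil values (log2 0.21, SE 0.10, adjusted p = 0.23).

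In the ATF4 arm, 0 of the 5 transcription factors were called in limma's test, and 2 had an unadjusted p under 0.05 (Atf3 above 0 and Ddit3 below 0). Atf4, the factor at the head of the arm, had 33.0, 41.38 and 38.6 in BDCM livers, against 44.1, 41.40 and 57.4 in corn oil livers. The groups touched without overlapping, with BDCM animal 2 and corn oil animal 2 almost level (log2 -0.33, SE 0.16, adjusted p = 0.24). Ddit3, the pro-apoptotic factor CHOP, had 4.80, 5.88 and 6.30 in BDCM livers and 9.09, 8.07 and 6.95 in corn oil livers. All BDCM values lay below all corn oil values, with a change of -0.51 (SE 0.15, adjusted p = 0.089), and a second probe gave -0.52. Atf3, a stress-induced repressor, had the largest positive difference among the factors. It had 2.53, 2.03 and 0.945 in BDCM livers and 1.14, 0.533 and 0.444 in corn oil livers. BDCM animal 3 lay inside the corn oil range (log2 1.39, SE 0.48, adjusted p = 0.13). The summed signal of 6 immediate early genes, which respond to handling within minutes to hours, was 32.7, 28.0 and 18.9 in BDCM livers and 41.3, 22.8 and 18.1 in corn oil livers. Of these 6 genes 0 were called in limma's test (1 at an unadjusted p under 0.05). Within each group the animals stood in the same order by that sum as by Atf3, with BDCM animal 1 and corn oil animal 1 highest. The part of that order in the Atf3 difference was not tested. Atf5 (log2 0.14, SE 0.18, adjusted p = 0.65) and Cebpg, a dimer partner of ATF4 (log2 0.16, SE 0.11, adjusted p = 0.40), both had overlapping groups.

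Slc7a5 is the light chain of the LAT1 transporter, which brings large neutral amino acids into cells. Its probe was dim: the relative signal was 0.0579, 0.0451 and 0.0572 in BDCM livers, against 0.00819, 0.0172 and 0.0248 in corn oil livers. The signal was well above background in all 3 BDCM livers and in none of the 3 corn oil livers. With the dim corn oil signals raised to the lowest signal well above background, Slc7a5 had a bound of 1.87-fold higher in BDCM livers. The measured mean log2 signals were -4.24 ± 0.20 in BDCM livers and -6.04 ± 0.82 in corn oil livers (SD, n = 3 each). The limma adjusted p of 0.043 belongs to that measured difference, which rests on corn oil signals not well above background. The call was lost with normexp background correction, where the difference was under that bound (log2 0.17, adjusted p = 0.26), with quantile normalization (adjusted p = 0.060), with no filter on dim probes (adjusted p = 0.087), with slide as a block (adjusted p = 0.17) and on slide 1 alone (adjusted p = 0.26). It was also lost in 4 of the 6 fits that left out 1 animal, those without any 1 of the BDCM animals or without corn oil animal 2, with adjusted p from 0.042 to 0.11 over the 6. Slc3a2, the heavy chain that carries LAT1 to the membrane, had 12.1, 17.9 and 13.99 in BDCM livers and 9.39, 8.52 and 16.5 in corn oil livers. Its groups overlapped through corn oil animal 3 (log2 0.40, SE 0.28, adjusted p = 0.41).

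**Figure D3:**
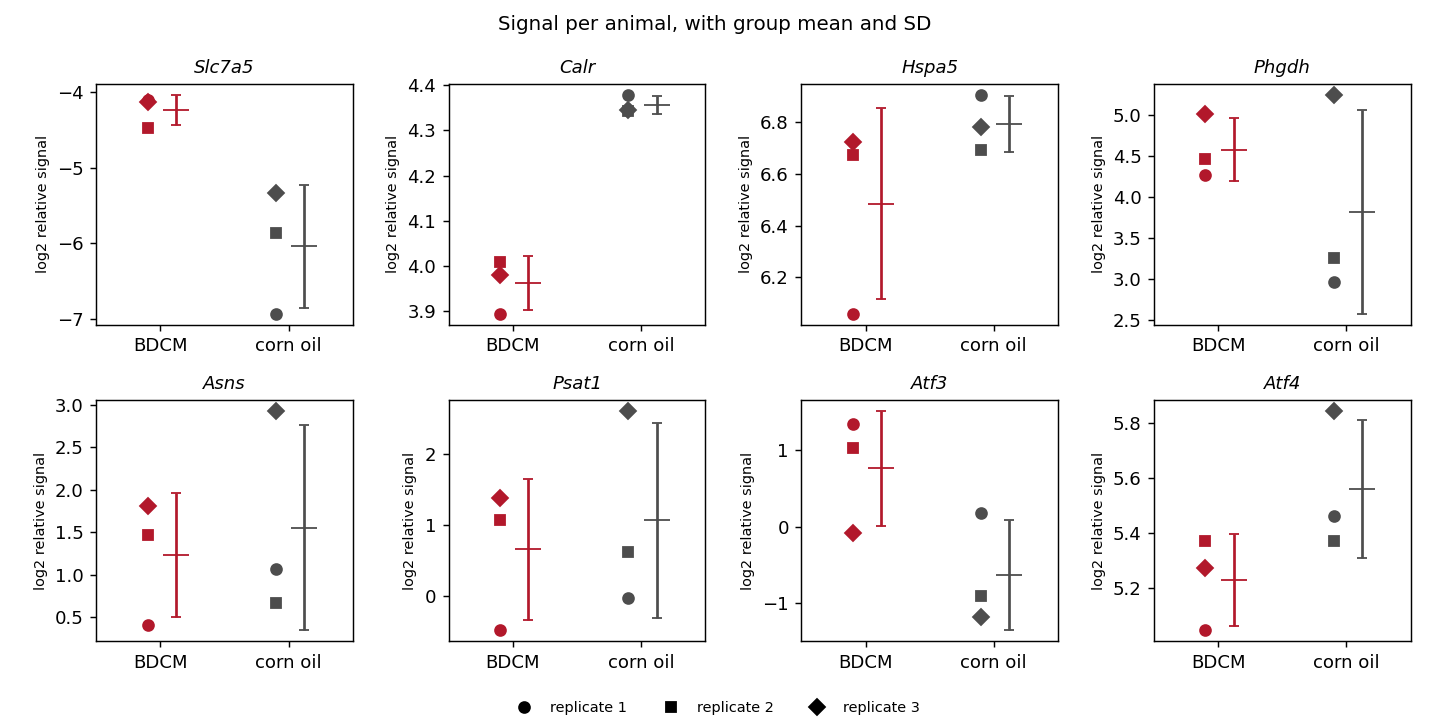
Log2 relative signal (0 is the 75th percentile of the array; each panel has its own scale) of 8 members in each BDCM animal (left) and each corn oil animal (right), with bars for the mean and SD. Calr separates the groups by a small difference, Slc7a5 is not well above background in corn oil livers, and Phgdh, Asns and Psat1 are highest in corn oil animal 3.

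The enzymes of serine, asparagine and one-carbon synthesis, classical ATF4 targets, were marked by 1 corn oil animal. Phgdh, the first enzyme of serine synthesis, had 19.2, 22.02 and 32.2 in BDCM livers, against 7.79, 9.51 and 38.0 in corn oil livers. Every BDCM value lay above corn oil animals 1 and 2 and below corn oil animal 3. Over all animals the difference was 0.76 (SE 0.61, adjusted p = 0.47), and without corn oil animal 3 it was 1.47 (adjusted p = 0.048). In that fit 1060 of 28995 features were called. Phgdh passed in 1 of the 6 fits that left out 1 animal, with differences from 0.33 to 1.47 and adjusted p up to 0.78. Psat1, the next enzyme of that pathway, had 0.718, 2.10 and 2.62 in BDCM livers and 0.983, 1.54 and 6.09 in corn oil livers (log2 -0.41, SE 0.79, adjusted p = 0.78). Asns, asparagine synthetase, had 1.33, 2.78 and 3.52 in BDCM livers and 2.09, 1.59 and 7.60 in corn oil livers (log2 -0.32, SE 0.65, adjusted p = 0.80). For both genes the direction turned when corn oil animal 3 was left out, to 0.36 for Psat1 and 0.37 for Asns, and when BDCM animal 1 was left out, to 0.16 and 0.09. Mthfd2, a mitochondrial folate enzyme, had 0.309, 0.349 and 0.503 in BDCM livers and 0.485, 0.660 and 1.82 in corn oil livers. Its 5 probes gave changes between -1.203 and -1.03, and the leading probe's -1.14 had an SE of 0.50 and an adjusted p of 0.20. Shmt2, which feeds serine carbon into mitochondrial folate, had 14.6, 15.8 and 15.5 in BDCM livers and 14.8, 13.7 and 17.3 in corn oil livers (log2 0.01, SE 0.11, adjusted p = 0.97).

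Targets that damp or execute the stress response gave no called gene. Sesn2, a leucine sensor and inhibitor of mTORC1, was the target with the clearest separation among those not called. It had 0.290, 0.374 and 0.253 in BDCM livers, against 0.393, 0.580 and 0.529 in corn oil livers (log2 -0.71, SE 0.20, adjusted p = 0.083). Trib3, a pseudokinase that inhibits ATF4 and CHOP, had 1.58, 2.48 and 1.33 in BDCM livers and 1.83, 0.820 and 3.97 in corn oil livers. The corn oil animals alone spanned more than the BDCM animals (log2 -0.07, SE 0.57, adjusted p = 0.96). Ppp1r15a, or GADD34, the phosphatase subunit that restores eIF2, had 2.52, 1.87 and 1.48 in BDCM livers and 2.60, 2.03 and 1.81 in corn oil livers (log2 -0.15, SE 0.23, adjusted p = 0.71). Chac1, a glutathione-degrading enzyme, differed by 0.03 (SE 0.12, adjusted p = 0.89) at its brightest probe and by -1.05 (adjusted p = 0.069) at another, so its probes disagreed. The secreted hormone Fgf21 had 2.74, 4.14 and 6.70 in BDCM livers and 2.38, 3.95 and 7.75 in corn oil livers. The spread of Fgf21 within each group was far larger than the difference between them (log2 0.02, SE 0.50, adjusted p = 0.98). Vldlr, a lipoprotein receptor, was well above background in 1 BDCM liver and 0 corn oil livers, with 0.0221, 0.0179 and 0.0306 in BDCM livers and 0.00727, 0.0147 and 0.0142 in corn oil livers, and was not tested.

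As a list, 1 of the 12 measured ATF4 targets was called higher and 0 lower, against 5.96% higher and 3.41% lower of all features. The called target is Slc7a5, whose probe passed the filter on dim probes through the BDCM livers alone. With the filter on all 6 arrays, 0 targets were called higher and 0 lower. The median log2 fold change of the 12 targets was -0.03, with 6 genes on each side of 0. Averaged over the 12 genes, the log2 signal relative to the corn oil mean was -0.26, 0.14 and 0.18 in BDCM animals 1, 2 and 3, against -0.42, -0.32 and 0.74 in corn oil animals 1, 2 and 3. Corn oil animal 3 was the highest of its group for 9 of the 12 targets, against 34.5% of all features, and for all 5 of Asns, Psat1, Phgdh, Shmt2 and Mthfd2, a subset formed after these values were seen. Without that animal the median of the targets was 0.36. Within slide 1 it was -0.15. The SD on the log2 scale was larger in corn oil livers for 11 of the 12 targets, with a median of 0.37 in BDCM livers and 0.84 in corn oil livers. Chaperones went the other way. Their SD was larger in BDCM livers for 12 of 13, with a median of 0.22 in BDCM livers and 0.081 in corn oil livers. Over all features the SD was larger in corn oil livers for 50.2%, and the medians were 0.148 in BDCM livers and 0.144 in corn oil livers. The BDCM arrays were on slides 1 and 2 and the corn oil arrays on slide 1. BDCM animal 1, the only BDCM array on slide 1, was the lowest of its group for 12 of 13 chaperones. Treatment, slide and that animal cannot be told apart in the chaperone spread. Corn oil animal 3 stood at 0.74 over the targets, and its part in their larger corn oil SD was not tested.

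**Figure D4:**
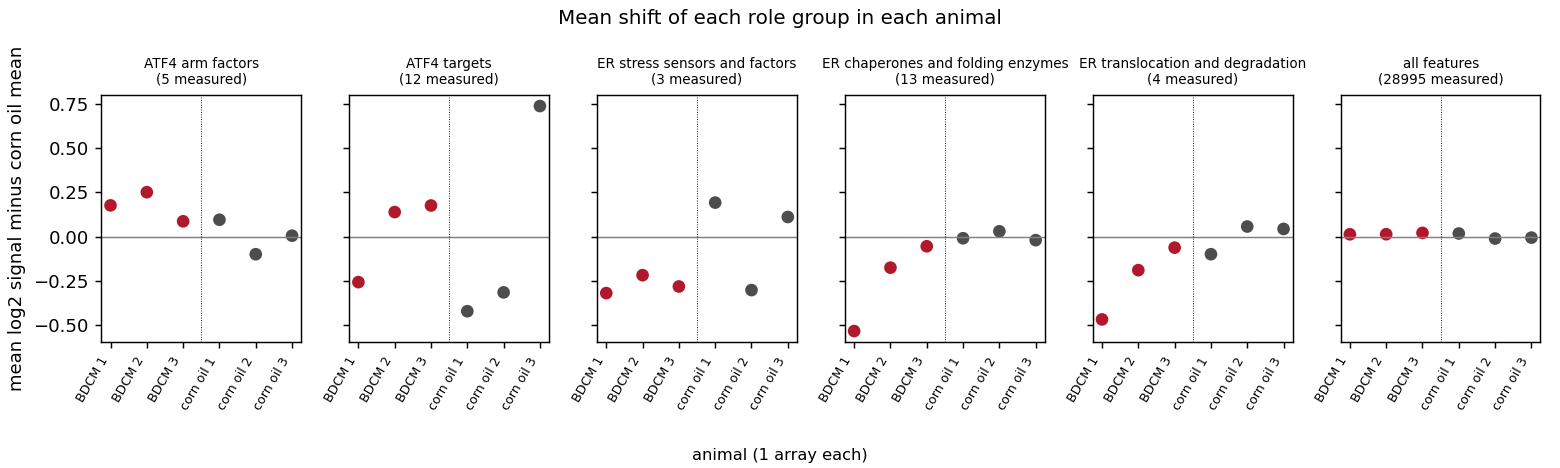
Mean log2 signal relative to the corn oil mean over the genes of each role, 1 point per animal, with BDCM animals left of corn oil animals. Chaperones range from -0.54 to -0.06 in BDCM animals and lie within 0.03 of 0 in corn oil animals, while ATF4 targets range from -0.26 to 0.18 in BDCM animals and from -0.42 to 0.74 in corn oil animals.

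Of the 40 genes, 17 had several probes that were kept, and for 15 of these all probes gave the same sign. The exceptions were Chac1 and Cebpg, whose probes gave 0.16, 0.20 and -0.34.

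Other genes of the same pathways were read from 6 further lists, of which 96 genes were measured. Of these, 5 were called higher, 3 lower and 88 did not pass the test, with a median log2 fold change of -0.04. That is near the shares of the array, 5.96% higher and 3.41% lower of all features. Features with a gene symbol had 4.18% higher and 3.74% lower. The 5 called higher include Mthfd1l, whose probe passed the filter on dim probes through the BDCM livers alone. The counts of each list below stand beside the same shares. Of 13 genes of eIF2, its exchange factor and its kinases, 0 were called in limma's test and 2 had an unadjusted p under 0.05. Eif2ak4, or GCN2, the kinase that senses amino acid shortage, had 1.25, 1.205 and 1.28 in BDCM livers, against 0.815, 1.03 and 0.972 in corn oil livers (log2 0.41, SE 0.11, adjusted p = 0.073). Ppp1r15b, the constitutive eIF2 phosphatase subunit, differed by -0.55 (SE 0.22, adjusted p = 0.16).

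Of 20 further ATF4-linked genes, 3 rose and 2 fell, and their median was 0.03. Of the 3, Mthfd1l passed the filter on dim probes through the BDCM livers alone. Pycr1, the mitochondrial enzyme that closes proline synthesis, had 3.13, 3.47 and 3.22 in BDCM livers and 1.32, 0.990 and 1.43 in corn oil livers. Each BDCM animal was more than 2-fold above every corn oil animal (log2 1.41, SE 0.15, adjusted p = 0.0096), and Pycr1 passed in all 6 fits that left out 1 animal. Slc1a5, a glutamine transporter, had 0.663, 0.650 and 0.560 in BDCM livers and 0.324, 0.358 and 0.336 in corn oil livers (log2 0.88, SE 0.10, adjusted p = 0.011). Mthfd1l, the mitochondrial enzyme that releases formate, had 0.0699, 0.121 and 0.0922 in BDCM livers and 0.0217, 0.0252 and 0.0365 in corn oil livers, of which 1 was well above background (log2 1.76, SE 0.27, adjusted p = 0.019). With normexp background correction the Mthfd1l difference was 0.54 (adjusted p = 0.0497). Ddit4, or REDD1, an inhibitor of mTORC1, had 0.852, 0.869 and 1.01 in BDCM livers and 1.47, 1.501 and 1.97 in corn oil livers (log2 -0.85, SE 0.15, adjusted p = 0.025). Gpt2, the mitochondrial alanine aminotransferase, named after its values were seen, was lower as well (log2 -0.71, SE 0.11, adjusted p = 0.021). These 5 genes thus moved in both directions.

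Of 11 aminoacyl-tRNA synthetases, which ATF4 raises during amino acid shortage, Aars1 fell and 10 of the 11 had changes below 0, with a median of -0.17. Aars1 had 24.7, 26.5 and 28.6 in BDCM livers, against 34.2, 36.8 and 40.8 in corn oil livers (log2 -0.49, SE 0.11, adjusted p = 0.044). Of 7 other ER stress factors, 0 were called and 0 had an unadjusted p under 0.05 in limma's test; Mbtps2, a protease that activates ATF6, differed by 0.23 (adjusted p = 0.27) and Wfs1, the ER protein wolframin, by -0.15 (adjusted p = 0.33).

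Among 21 other ER folding and glycosylation genes, P4hb rose, and the median was 0.01. P4hb, the founding protein disulphide isomerase, had 150.7, 129 and 133 in BDCM livers and 99.7, 87.0 and 79.1 in corn oil livers (log2 0.64, SE 0.12, adjusted p = 0.030). Its 3 relatives among the members, Pdia3, Pdia4 and Pdia6, all had changes below 0 and did not pass. Among 24 other genes of translocation, degradation and export, Ssr4, a subunit of the translocon-associated complex, rose, with 118, 100.7 and 107.1 in BDCM livers and 85.4, 78.7 and 80.4 in corn oil livers (log2 0.41, SE 0.10, adjusted p = 0.04996). The median of that list was 0.0043. Within slide 1, all 8 called genes of these lists kept their direction and 0 passed (adjusted p from 0.10 to 0.20). Without any 1 animal, Slc1a5 passed in 5 of 6 fits, Mthfd1l in 3, Ddit4 in 2, Gpt2 and P4hb in 1 each, and Aars1 and Ssr4 in 0. Slide as a block left 0 of the 8 called, and no filter on dim probes left Pycr1 and Slc1a5.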

How the data were processed

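Per the labels' protocols, Cy3-labelled cRNA from the livers of 6 rats was measured on 1-colour arrays, and Agilent Feature Extraction 10.7 quantified the scans, according to the submitters' processing notes. Each deposited scanner file gives a background-subtracted fluorescence intensity per spot on a linear scale, per the file headers, with arrays not scaled to each other. A deposited value table holds a linear ratio with no stated method. From the values it is the processed intensity over the 75th percentile of its array (at least 96.4% of probes within 1%), with no centring per gene, column medians of 0.0954 to 0.102 and each array's own direction. It served as an alternative.

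Control spots (1319 of 62976) and 27 probes with outlier flags were left out. Processed intensity was taken to log2, less the array's 75th percentile. A probe was kept if every array of either group held it well above background, and the brightest kept probe by mean stood for each gene. The files carry no symbols, so unversioned accessions were matched to RefSeq GRCr8, a later build than the arrays' own. Of 61657 probes, 27460 (44.5%) matched 1 symbol, 0 several and 34197 none, and the unmatched were tested under their accession. The comparison used limma 3.58.1 (lmFit and eBayes, two-sided) under R 4.3.3, with Benjamini-Hochberg adjustment over 28995 features and a threshold of 0.05. The script was tested on simulated data. A probe not well above background in any array of a group has only a bound there: the brighter group's mean was set against the dimmer group's mean after each dim array's value was raised, where lower, to that array's lowest signal well above background. Array number limits the precision, and no probe was saturated.

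The members and all gene lists were chosen with earlier results of these data known. Named were all members, up to 4 called genes of each further list with the largest change (or the 2 of smallest p where none was called), and called cell type markers. Alternatives were normexp correction (offset 50), quantile normalization, median centring, spike-in scaling, the value table, no filter and a stricter one on dim probes, the mean over probes, trend and robust options, slide as a block, slide 1 alone, a replicate block, and leaving out each animal. A common floor under dim signals and every probe on its own were added after seeing the data. Normexp was run on the median foreground signal in place of the planned mean signal. The sequence of 1 promoter match is not reported here.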

Additional observations from a re-analysis of the deposited data

How the results depend on the processing

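Neither of the 2 member calls held under every setting. The number of members called higher (1) became 0 with normexp correction, quantile normalization, no filter on dim probes, the filter on all 6 arrays (which removes Slc7a5), slide as a block, slide 1 alone and the replicate block, and 7 with spike-in scaling. The number called lower (1) became 2 with normexp correction and with the common floor, 3 with trend and robust options, and 0 with median centring, spike-in scaling, no filter, slide 1 alone and the replicate block. Further pathway genes called higher (5) became 8 with normexp correction and with median centring, 41 with spike-in scaling, 11 with trend and robust options, 2 without a filter, and 0 with slide as a block, slide 1 alone and the replicate block. Those called lower (3) became 6 with trend and robust options and 0 with spike-in scaling, no filter, slide as a block, slide 1 alone and the replicate block. Over all features, 1727 higher and 988 lower became 12930 and 319 with spike-in scaling, 361 and 248 without a filter, 189 and 161 with slide as a block, 52 and 68 on slide 1 alone, and 198 and 155 with the replicate block. Without a filter 45862 features were tested, and slide 1 alone has 4 arrays; the cause of the other moves was not tested. The share of calls that were higher was 63.6%, 74.2% with median centring and 97.6% with spike-in scaling. Leaving out 1 animal gave 166 to 819 features higher and 169 to 513 lower, 0 to 2 members higher and 0 to 0 lower, and 1 to 4 further genes higher and 0 to 2 lower. With every kept probe tested on its own, 8.52% of 39027 probes were called, and of the members' probes those of Calr (adjusted p = 0.038) and Slc7a5 (0.045).

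The labels number the animals and state no pairing. Same-numbered animals' deviations from their group means correlated at 0.092, 0.019 and 0.117, those of differently numbered animals at -0.098 to 0.0023. The replicate block lowered the calls from 2715 to 353, but it also leaves fewer degrees of freedom. Neither result can decide whether same-numbered animals share a pairing or an order of handling.

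Differences of members not called changed sign in some fits. With spike-in scaling they were Atf4 0.15, Trib3 0.42, Ppp1r15a 0.33, Asns 0.16, Psat1 0.075, Ern1 0.042, Hspa5 0.17, Hsp90b1 0.20, Pdia3 0.31, Pdia4 0.075, Pdia6 0.37, Dnajb9 0.12, Dnajb11 0.14, Hyou1 0.29, Sdf2l1 0.14 and Syvn1 0.40, with the called Calr at 0.089 and Wfs1 of the further lists at 0.33, all below the shift of 0.48 in the median of all features. With slide as a block and on slide 1 alone they were Chac1 -0.11, Ppp1r15a 0.24, Shmt2 -0.060, Fgf21 -0.60, Atf6 -0.014 and Canx -0.13. Chac1 was -0.51 with the mean over probes and -0.022 with normexp correction, Fgf21 -0.022 with normexp correction and Shmt2 -0.0065 with quantile normalization. Leaving out 1 animal gave -0.64 to 0.50 for Trib3, -0.76 to 0.37 for Asns, -0.95 to 0.36 for Psat1, -0.16 to 0.048 for Syvn1, -0.051 to 0.10 for Chac1, -0.067 to 0.099 for Shmt2, -0.35 to 0.030 for Ppp1r15a, -0.38 to 0.47 for Fgf21 and -0.010 to 0.29 for Atf5.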

Other observations

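BDCM animal 1 was the lowest of its group for 12 of 13 member chaperones and for 3 of the 4 members of translocation and degradation, but not for most genes of the further ER lists. It was the highest of its group for 14 of 21 other ER folding and glycosylation genes and for 16 of 24 other genes of translocation, degradation and export, against 0 of 13 member chaperones and 36.8% of all features. Averaged over those lists, its log2 signal relative to the corn oil mean was 0.11 and 0.10, against -0.54 for the chaperones. Corn oil animal 1 was likewise the highest of its group for 15 of the 21 folding and glycosylation genes. For the 24 others it was so for 9, against 37.2% of all features. The aminoacyl-tRNA synthetases varied with the animals that also marked the members. BDCM animal 1 and corn oil animal 1 were each the lowest of their group for 10 of 11 synthetases (38.6% and 32.5% of all features). Corn oil animal 3 was the highest of its group for 9 of 11 and BDCM animal 2 for 8 of 11 (34.5% and 27.0% of all features). Their mean log2 signal relative to the corn oil mean was -0.36, -0.11 and -0.18 in BDCM animals 1, 2 and 3, against -0.28, 0.01 and 0.27 in corn oil animals 1, 2 and 3.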
